A study of Mus musculus with 6 samples.

Results

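Blood vessel endothelium carries, on its surface and in its secretory granules, much of the machinery that decides whether blood clots and whether a clot is dissolved. The levels of 9 genes of this machinery were described in RNA-seq libraries of mouse endothelial cells with altered Dot1l, which encodes a histone H3K79 methyltransferase. The genes were taken by name from a table of 24421 genes: the clotting cofactor gene F8, the adhesive glycoprotein gene Vwf and the clotting initiator gene F3, the anticoagulant genes Thbd, Procr and Tfpi, and the fibrinolysis genes Plat, Plau and Plaur. They were listed by name and not by a cutoff on a measured value, although earlier results of these data were known.

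Tissue factor, the product of F3, starts clotting when blood meets it, and factor VIII, carried in plasma by von Willebrand factor, amplifies the cascade that ends in thrombin. Resting endothelium opposes this with tissue factor pathway inhibitor and with thrombomodulin, which turns thrombin into an activator of protein C presented by the endothelial protein C receptor. Plasminogen activators then release plasmin, which digests fibrin, and a surface receptor, the product of Plaur, holds urokinase at the cell.

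The series held 6 libraries, 1 for each condition. For the first pair, skin of E15.5 embryos, a stage of late gestation, was dissociated and cells without F4/80, CD45 and Lyve1 on their surface were collected as blood endothelial cells (BECs). The legend of the study's isolation scheme also lists CD31 as a positive marker. Both skin libraries carried the Dot1l 2f/2f floxed allele, without Tie2-Cre in the library labelled Cont and with Tie2-Cre in the library labelled cKO. The Tie2 promoter drives Cre in endothelium and is also known to be active in blood-forming cells, and RNA of 2 to 3 embryos was pooled in each library. For the other pairs, the embryonic yolk sac BEC line CRL-2581 and dermal lymphatic endothelial cells (LECs, C57-6064L) received lentivirus carrying dCas9-VP64, a transcriptional activator, and guides to the Dot1l promoter, or an empty lentivirus as control, and cells of 2 to 3 flasks were combined in each library. Cells positive for EGFP, a fluorescent protein encoded by the vector, were sorted for sequencing. The libraries with guides are called OE-BEC and OE-LEC. The activator and the guides thus differed together between a culture and its control. With 1 library for each condition there was no replicate and no p-value was computed, so every interval below covers counting error only. Reads made by PCR without molecular identifiers are not independent molecules, so even that error can be larger than the intervals show.

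The libraries held between 8863349 and 31032461 reads on genes, so that a level of 3 reads, the floor used for low genes, lay between 0.0967 and 0.339 reads per 1000000 (counts normalized to library size, CPM). Dot1l had 762 reads in skin Cont and 944 under the cKO label, and its log2 ratio was -0.07 with a 95% interval from -0.21 to 0.07. The summed count over the gene therefore did not go with that label, although it adds up all exons and does not isolate a deleted one. Dot1l was 2.78-fold higher in OE-BEC (1972 and 4208 reads) and 2.30-fold higher in OE-LEC (2490 and 6720 reads). Of the lymphatic markers, Prox1, Pdpn and Ccl21a had no read in either cultured LEC library, while Lyve1 was at 1998 CPM in Cont LEC and 1962 CPM in OE-LEC. The list of 7 lymphatic markers summed to 2105 and 2093 CPM in the LEC pair, and to 749 and 1160 CPM in the cultured BEC pair. In the skin libraries, sorted against Lyve1, F4/80 and CD45, the genes of these surface proteins were read at 1027 and 1801 CPM (Lyve1), 194 and 308 CPM (Adgre1) and 136 and 211 CPM (Ptprc), for Cont first and then the library labelled cKO. Prox1 had 1304 and 883 reads there. Gapdh was 1.70-fold higher in the library labelled cKO.

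Marker lists differed within each pair. From skin Cont to the library labelled cKO, 11 of 12 endothelial markers were lower (summed level 7264 and 4689 CPM) and 8 of 10 macrophage markers were higher (3889 and 5890 CPM), with none of these markers at 0. Fibroblast markers summed to 3178 and 2347 CPM there, keratinocyte markers to 208 and 364 CPM and mast cell markers to 2371 and 3311 CPM. In OE-BEC 11 of 12 endothelial markers were lower (9465 and 5880 CPM) and in OE-LEC 10 of 12 (7615 and 6697 CPM). In the cultures the macrophage genes Adgre1 and Ptprc had at most 9 reads, and 4 of 10 macrophage markers had none, whereas Cd68 was at 61.8 and 32.2 CPM in the BEC pair and 93.2 and 80.2 CPM in the LEC pair, near its 61.3 and 119 CPM in skin. In bulk RNA, fewer cells of a type and less RNA per cell cannot be told apart. Ratios of the members were therefore also computed relative to the sum of the 12 endothelial markers, a scaling chosen after seeing the data. It raised every log2 ratio by 0.69 in the skin pair, by 0.65 in the BEC pair and by 0.17 in the LEC pair, and values where it changed a direction or a call by the fold rule are given beside the result.

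Both a fold rule and an interval rule described a difference. By the fold rule, which follows the study's definition, the higher normalized count had to reach 5 in the skin pair or 3 in the cultured pairs and exceed the lower one more than 3-fold. By the interval rule, the 95% interval of the log2 ratio, which reflects read counts alone, did not include 0, with at least 10 reads in the pair. In the skin pair no member of 8 tested passed the fold rule, which called 5.17% of all genes tested higher and 2.41% lower. The interval rule called 2 of 8 members higher (Plau and Plaur) and 3 lower (Vwf, Thbd and Tfpi), beside 23.1% and 25.4% of all genes. In the BEC pair 1 of 9 members, F3, passed the fold rule as higher and 2, F8 and Vwf, as lower, beside 8.02% and 5.27% of all genes. The interval rule called 4 members higher and 5 lower, beside 27.4% and 30.0%. In the LEC pair no member was called higher and 2, F8 and Vwf, lower by the fold rule, beside 2.77% and 2.09%. The interval rule called 5 higher and 3 lower, beside 24.2% and 21.4%. With a pseudocount of 1, the median log2 ratio over the 9 members was -0.05 in the skin pair, -0.16 in the BEC pair and 0.34 in the LEC pair. Over all genes tested it was 0.00, 0.01 and 0.00. The skin median was the value of F3, which had 4 and 5 reads and was not among the 8 tested there.

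**Figure D1:**
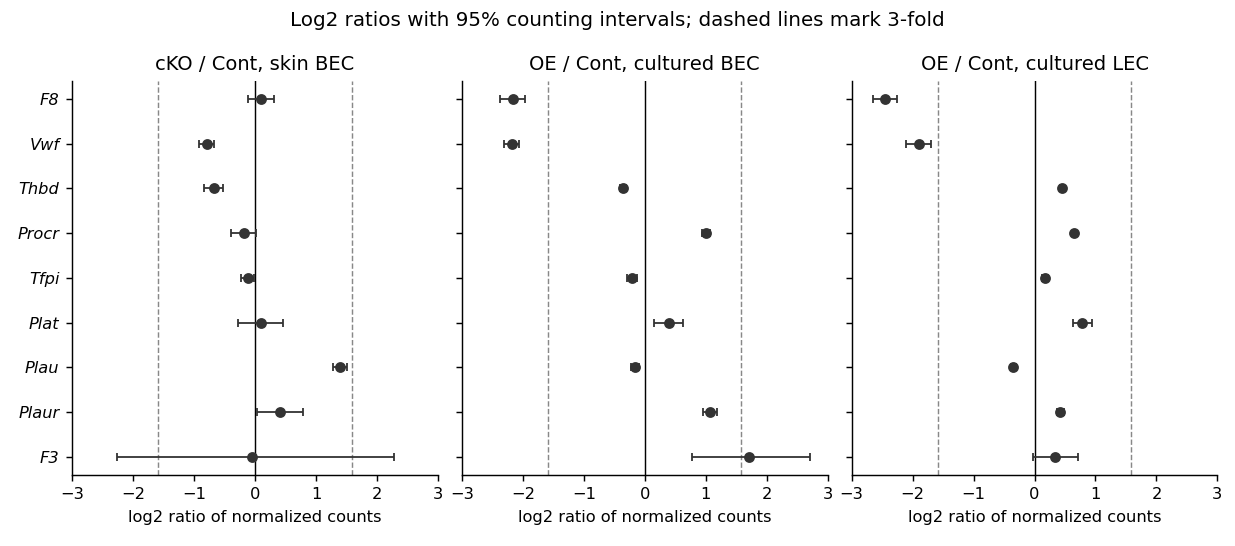
Log2 ratio of normalized counts, changed library over its control, for the 9 genes in the skin, cultured BEC and cultured LEC pairs; points are 1 library against 1, bars are 95% counting intervals and dashed lines mark 3-fold. F8 and Vwf lie left of the lower dashed line in both cultured pairs (-2.16 and -2.18 in BEC, -2.45 and -1.90 in LEC), while in skin Plau reached 1.39.

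F8 and Vwf, the procoagulant pair, were the members with the largest decreases in both overexpression comparisons. F8 (chromosome X, 75172715 to 75382615, minus strand, mm10) overlaps Fundc2 on the opposite strand without sharing an exon base. Its level was 35.4 CPM in skin Cont, 39.4 CPM in the library labelled cKO, 76.6 CPM in cultured Cont BEC, 16.7 CPM in OE-BEC, 43.9 CPM in Cont LEC and 7.93 CPM in OE-LEC. The OE libraries were the 2 lowest of the 6, and the skin libraries could not be separated within their counting intervals. F8 was 4.48-fold lower in OE-BEC (log2 -2.16, -2.37 to -1.96) and 5.47-fold lower in OE-LEC (log2 -2.45, -2.65 to -2.25), from 1355 to 232 and from 1146 to 246 reads. In the skin pair its log2 ratio was 0.10 (-0.11 to 0.31), and 0.79 (lower bound 0.57) relative to the endothelial markers.

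Vwf, whose product tethers platelets and carries factor VIII (chromosome 6, 125546774 to 125686679, plus strand), was at 131 CPM in skin Cont, 78.6 CPM in the library labelled cKO, 204 CPM in cultured Cont BEC, 43.8 CPM in OE-BEC, 31.5 CPM in Cont LEC and 8.38 CPM in OE-LEC. Cont LEC, at 0.155 of the Cont BEC level, lay below even OE-BEC. Vwf was 4.53-fold lower in OE-BEC (log2 -2.18, -2.31 to -2.06) and 3.72-fold lower in OE-LEC (log2 -1.90, -2.10 to -1.69). The skin pair showed a 1.73-fold lower level under the cKO label (log2 -0.79, -0.92 to -0.67), short of the fold rule. Relative to the endothelial markers that ratio was -0.11 (-0.24 to 0.02), an interval that included 0. The platelet list, which could also supply Vwf, summed to 176 CPM in skin Cont and 309 CPM in the library labelled cKO, mostly Pf4 (150 and 281 CPM), and its part in the result was not tested. Only 3 of the 8 genes of that list were higher in the library labelled cKO, and their median log2 ratio was -0.20. In the cultures that list summed to 25.2 and 25.5 CPM in the BEC pair and to 28.1 and 20.5 CPM in the LEC pair.

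The size of the F8 and Vwf decreases in OE-BEC depended on the scaling. Relative to the endothelial markers, their log2 ratios were -1.51 (-1.72 to -1.31) and -1.53 (-1.66 to -1.41), both short of 3-fold, while the 3 members past the rule became Procr, Plaur and F3, so that 1 of 3 calls was shared. In OE-LEC both calls were kept (-2.28 and -1.73). The ratio of F8 to Vwf reads within a library needs no scaling. It was 0.376 (0.353 to 0.400) in Cont BEC and 0.380 (0.326 to 0.443) in OE-BEC, with overlapping intervals. It was 1.39 (1.27 to 1.52) in Cont LEC and 0.946 (0.791 to 1.13) in OE-LEC, with F8 down by more than Vwf. In skin the ratio was 0.270 (0.238 to 0.306) in Cont and 0.502 (0.446 to 0.564) in the library labelled cKO, without overlap of the intervals.

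**Figure D2:**
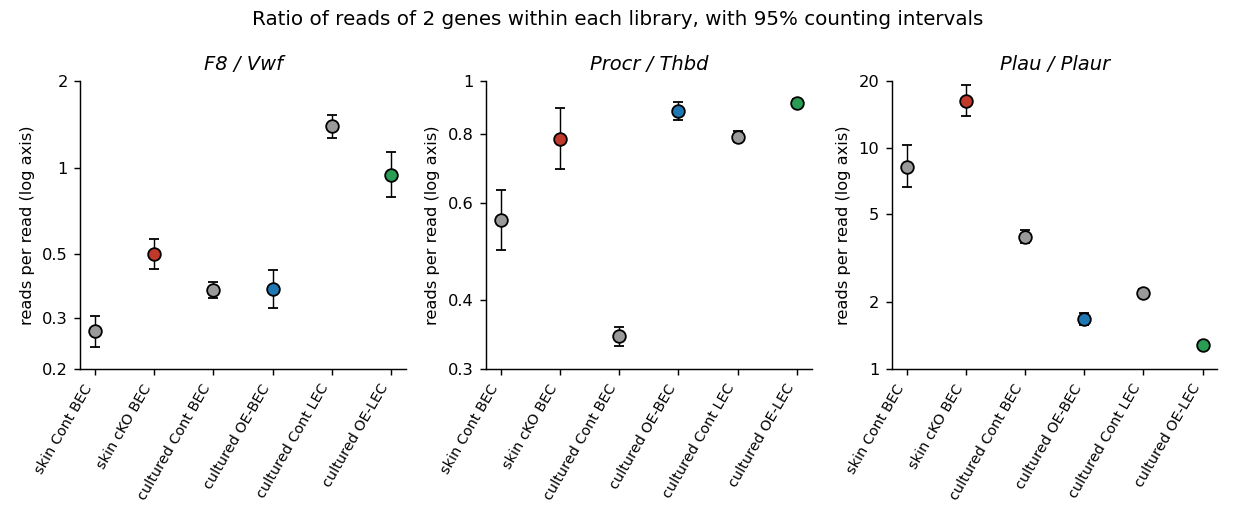
Ratio of reads of 2 genes within each of the 6 libraries, on log axes, with 95% counting intervals: F8 to Vwf, Procr to Thbd and Plau to Plaur. The F8 to Vwf ratio was alike in cultured Cont BEC and OE-BEC (0.376 and 0.380), the Procr to Thbd ratio was lowest in cultured Cont BEC (0.344), and the Plau to Plaur ratio was highest in the skin library labelled cKO (16.3).

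The genes that work on factor VIII and von Willebrand factor inside the cell did not share one direction. Lman1 and Mcfd2 encode the receptor complex that carries factor VIII out of the endoplasmic reticulum, and their log2 ratios were 0.12 and -0.32 in OE-BEC and 0.02 and 0.10 in OE-LEC. Furin, whose protease trims the von Willebrand factor propeptide, had log2 ratios of -1.19 in OE-BEC and -0.66 in OE-LEC. Rab27a, which marks the storage granules of von Willebrand factor, had ratios of -1.28 and -0.61. None of the 13 genes tested of this processing and secretion list passed the fold rule in either cultured pair, and by the interval rule 2 were higher and 6 lower of 13 in OE-BEC, and 3 higher and 6 lower of 13 in OE-LEC. All genes tested gave 27.4% higher and 30.0% lower in the BEC pair and 24.2% and 21.4% in the LEC pair. Furin and Rab27a were named after their values were seen.

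F3, which encodes tissue factor (chromosome 3, 121723537 to 121735048, plus strand), had the lowest CPM of the members in every library. Per kilobase of exon it was not the lowest in OE-LEC, at 2.07 CPM beside 0.800 for F8 and 0.522 for Vwf. It had 4 reads in skin Cont, 5 in the library labelled cKO, 14 in cultured Cont BEC, 35 in OE-BEC, 109 in Cont LEC and 162 in OE-LEC, or 0.451, 0.451, 0.792, 2.51, 4.17 and 5.22 CPM. The LEC libraries were highest and the 3 lowest libraries could not be separated. F3 was 3.26-fold higher in OE-BEC (log2 1.71, 0.77 to 2.71), a call that rested on 14 and 35 reads and whose interval reached below 3-fold. In OE-LEC the log2 ratio was 0.34 (-0.02 to 0.71), and in skin, where both counts were under the minimum of the fold rule, it was -0.06 (-2.27 to 2.28), and 0.63 relative to the endothelial markers. Against its inhibitor gene, F3 had 0.00499 reads per Tfpi read in Cont BEC (0.00273 to 0.00839) and 0.0188 in OE-BEC (0.0131 to 0.0263), close to the 0.0163 of Cont LEC and the 0.0183 of OE-LEC.

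The promoters of F3, Procr and Plaur, the 3 members whose log2 ratios were highest in OE-BEC, are shown for their AP-1 letters. That of Tfpi, which moved little, is shown as well. All were chosen after their values were seen, so the letters and ratios together are no test. Each stretch lies before the RefSeq start (GRCm38.p6) and stops where annotated exons of the gene begin, and is printed on the gene's strand. Capitals mark matches, on either strand, to the motifs searched. AP-1 was spelled TGANTCA in the search. The letters for Sp1 were GGGCGG in the same search. For ETS the letters searched were CCGGAA in every window. GATA was taken as AGATAA throughout the windows. A TATA box was taken as TATAAA in this search. No match overlapped one of another motif, and the Sp1 matches of Plaur ran together. The stretches are chr3:121723287-121723536 (F3, plus strand), chr2:155750967-155751116 (Procr, plus strand), chr7:24462233-24462482 (Plaur, plus strand) and chr2:84476776-84477009 (Tfpi, minus strand).
F3 promoter: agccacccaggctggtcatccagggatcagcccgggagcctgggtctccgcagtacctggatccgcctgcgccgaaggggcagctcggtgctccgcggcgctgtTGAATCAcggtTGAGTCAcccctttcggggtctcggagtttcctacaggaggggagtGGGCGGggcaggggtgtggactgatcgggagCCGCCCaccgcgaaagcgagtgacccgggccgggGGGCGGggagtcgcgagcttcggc
Procr promoter: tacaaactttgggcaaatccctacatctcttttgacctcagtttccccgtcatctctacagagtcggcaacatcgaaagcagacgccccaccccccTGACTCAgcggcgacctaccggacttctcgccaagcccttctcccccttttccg
Plaur promoter: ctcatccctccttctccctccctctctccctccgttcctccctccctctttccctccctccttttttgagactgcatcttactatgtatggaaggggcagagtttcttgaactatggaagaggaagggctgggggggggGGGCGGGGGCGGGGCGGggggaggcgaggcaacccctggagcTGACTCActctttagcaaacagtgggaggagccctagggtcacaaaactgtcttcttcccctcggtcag
Tfpi promoter: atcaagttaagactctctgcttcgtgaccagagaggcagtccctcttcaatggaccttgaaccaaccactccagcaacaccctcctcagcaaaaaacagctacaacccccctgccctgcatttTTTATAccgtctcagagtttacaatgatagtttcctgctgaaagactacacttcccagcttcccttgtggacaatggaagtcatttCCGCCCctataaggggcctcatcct
Counted back from the RefSeq start, F3 held AP-1 letters at 146 and 135 bases, Procr at 154 bases and Plaur at 69 bases. The RefSeq start of Procr lies beyond the end of its printed stretch. The Tfpi stretch held no AP-1 letters. A window at another RefSeq start of Tfpi (chr2:84474175-84474424) held Sp1 and GATA but no AP-1 letters. The F8 window, which lies within annotated F8 exons, held no match to any of the motifs. Across 32851 promoter windows of the RefSeq table, 6.75% held AP-1, 32.7% Sp1, 9.99% GATA and 12.4% TATA box letters, and 3952 windows held ETS letters. The matched letters are a description of these windows and not evidence of a site. No stretch is printed for F8, Vwf, Thbd, Plat and Plau.

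Thbd, Procr and Tfpi, the anticoagulant genes, did not move as a block, and their order across cultures differed from that of F8 and Vwf. Thbd encodes thrombomodulin on 1 exon (chromosome 2, 148404466 to 148408188, minus strand) and was at 78.1 CPM in skin Cont, 50.6 CPM in the library labelled cKO, 577 CPM in cultured Cont BEC, 439 CPM in OE-BEC, 680 CPM in Cont LEC and 917 CPM in OE-LEC. Levels in all 4 cultures were above both skin libraries. Its ratio was 1.60-fold lower in the library labelled cKO (log2 -0.68, -0.84 to -0.52), 1.28-fold lower in OE-BEC (log2 -0.36, -0.40 to -0.31) and 1.37-fold higher in OE-LEC (log2 0.45, 0.42 to 0.48). Relative to the endothelial markers the skin ratio was 0.01 (-0.16 to 0.17) and the OE-BEC ratio turned to 0.29 (0.25 to 0.34).

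Klf2 and Klf4, flow-responsive transcription factors known to raise Thbd, had log2 ratios of -0.67 and -1.07 in the skin pair, -0.20 and -0.34 in OE-BEC and 0.37 and 0.67 in OE-LEC. Klf6 and Mef2c, the other genes of this list of 4, had log2 ratios of -0.59 and -0.52 in skin, 0.73 and -1.08 in OE-BEC and 0.22 and -0.49 in OE-LEC. By the interval rule all 4 were lower in skin, 1 was higher and 3 lower in OE-BEC, and 3 were higher and 1 lower in OE-LEC, beside the shares of all genes given above. The list therefore shared the direction of Thbd in skin but not as a whole in the cultures. Its median log2 ratio in skin was -0.63, beside -0.66 for the endothelial markers, so that direction was not particular to it. Scaling to those markers adds 0.69 in skin, more than the decreases of Klf2, Klf6 and Mef2c there. In the BEC pair it adds 0.65, more than the decreases of Klf2 and Klf4. Klf2, Klf4, Klf6 and Mef2c were named after their values were seen.

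Procr, the endothelial receptor of protein C (chromosome 2, 155751117 to 155755471, plus strand), was at 43.7 CPM in skin Cont, 39.8 CPM in the library labelled cKO, 198 CPM in cultured Cont BEC, 387 CPM in OE-BEC, 539 CPM in Cont LEC and 837 CPM in OE-LEC. The skin libraries did not differ beyond counting error. Procr was 100.5% higher in OE-BEC (log2 interval 0.94 to 1.07, and a log2 ratio of 1.65, past 3-fold, relative to the endothelial markers) and 1.57-fold higher in OE-LEC (log2 0.65, 0.62 to 0.68). The skin log2 ratio was -0.19 (-0.39 to 0.01), and 0.50 (0.30 to 0.70) relative to the endothelial markers. Procr reads per Thbd read were 0.344 (0.331 to 0.357) in Cont BEC, 0.883 (0.851 to 0.916) in OE-BEC, 0.793 (0.775 to 0.811) in Cont LEC and 0.912 (0.897 to 0.928) in OE-LEC. Within this protein C pair the balance therefore lay further toward the receptor gene in both OE libraries than in their controls, as it did in the library labelled cKO (0.559 and 0.786).

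Tfpi, the inhibitor of tissue factor (chromosome 2, 84432855 to 84476775, minus strand), was the steadiest member, at 139 CPM in skin Cont, 133 CPM in the library labelled cKO, 159 CPM in cultured Cont BEC, 133 CPM in OE-BEC, 256 CPM in Cont LEC and 285 CPM in OE-LEC. Skin Cont, OE-BEC and the library labelled cKO could not be separated, and the LEC libraries were highest. Log2 ratios were -0.12 (-0.23 to -0.01) in skin, -0.21 (-0.30 to -0.13) in OE-BEC and 0.17 (0.13 to 0.22) in OE-LEC, all within 1.16-fold, and turned positive in skin (0.57) and OE-BEC (0.44) relative to the endothelial markers.

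**Figure D3:**
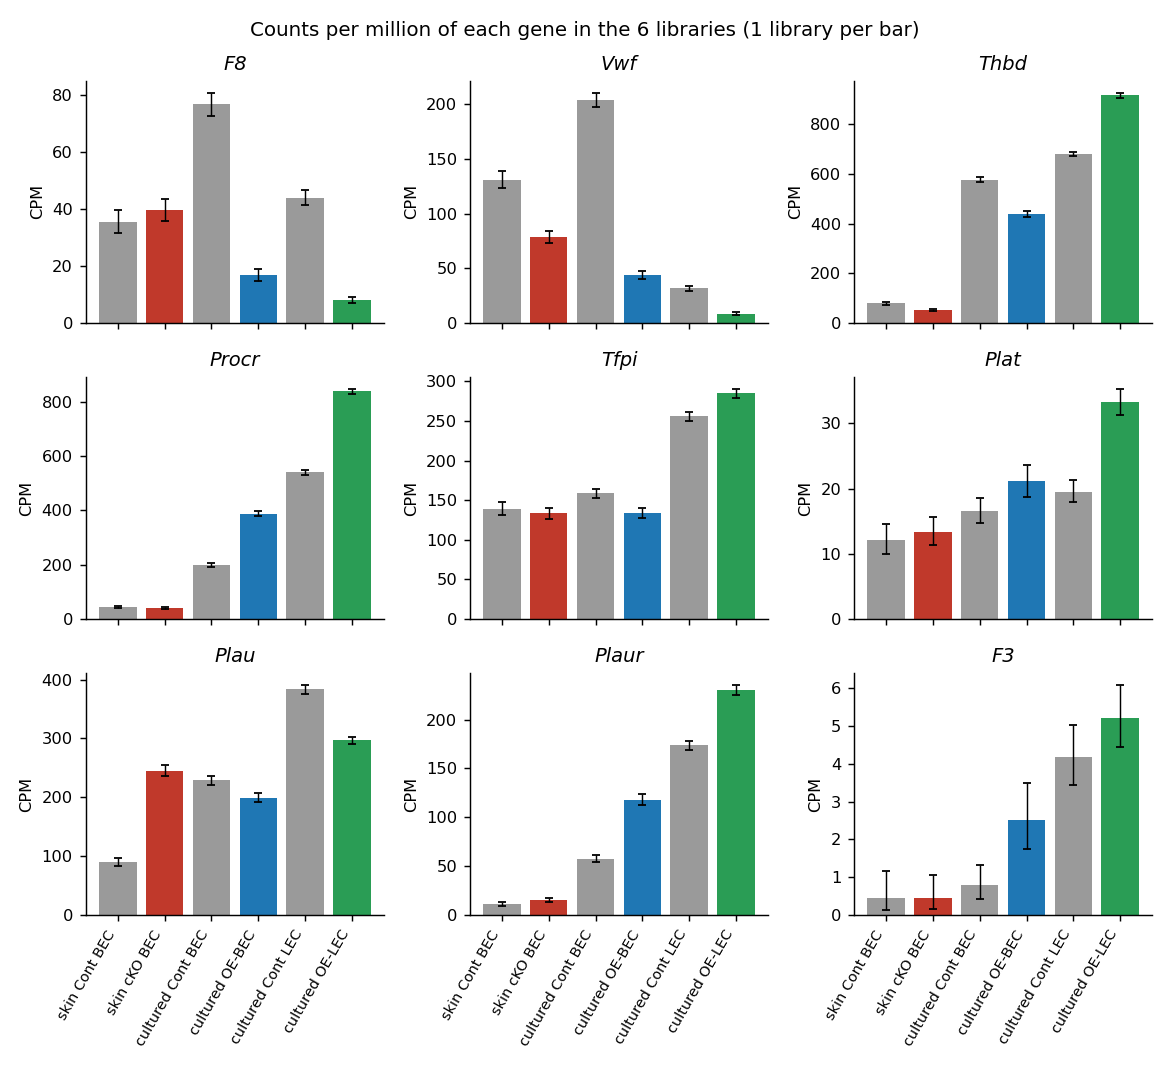
Level of each of the 9 genes in CPM in the 6 libraries, with 95% counting intervals and 1 library per condition. Both OE libraries stand below their own controls for F8 (16.7 against 76.6 and 7.93 against 43.9 CPM) and Vwf, above them for Procr and Plaur, and the skin library labelled cKO stands above skin Cont for Plau (245 against 89.9 CPM).

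Plau, which encodes the urokinase-type plasminogen activator (chromosome 14, 20836660 to 20843385, plus strand), had the largest difference of any tested member in the skin pair. It was at 89.9 CPM in skin Cont, 245 CPM in the library labelled cKO, 229 CPM in cultured Cont BEC, 199 CPM in OE-BEC, 383 CPM in Cont LEC and 297 CPM in OE-LEC. Skin Cont was the lowest of the 6. Plau was 2.63-fold higher in the library labelled cKO (797 and 2720 reads, log2 1.39, 1.28 to 1.51), under the 3-fold rule, and at 2.08 (1.96 to 2.20) relative to the endothelial markers it was past it. The macrophage list was also higher in that library, as given above, and Gapdh too, and their part in the result was not tested. Plau was lower in OE-BEC (log2 -0.16, -0.23 to -0.09), a sign that turned to 0.49 relative to the endothelial markers, and lower in OE-LEC (log2 -0.35, -0.39 to -0.31).

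Plaur, the receptor that holds urokinase at the cell surface (chromosome 7, 24462484 to 24475968, plus strand), was at 10.9 CPM in skin Cont, 15.1 CPM in the library labelled cKO, 57.6 CPM in cultured Cont BEC, 118 CPM in OE-BEC, 173 CPM in Cont LEC and 230.2 CPM in OE-LEC. All 6 levels were separated in this order. Plaur was 2.11-fold higher in OE-BEC (log2 1.08, 0.96 to 1.19), and at a log2 ratio of 1.72 relative to the endothelial markers it was past 3-fold. It was 1.34-fold higher in OE-LEC (log2 0.43, 0.37 to 0.48) and 1.32-fold higher in the library labelled cKO (log2 0.41, 0.04 to 0.78, from 97 and 167 reads). Plau reads per Plaur read were 3.97 in Cont BEC and 1.69 in OE-BEC, 2.21 in Cont LEC and 1.29 in OE-LEC, and 8.22 and 16.3 in the skin pair. The ligand thus became scarcer against its receptor in both OE libraries and more abundant in skin.

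Plat, which encodes the tissue-type plasminogen activator (chromosome 8, 22757727 to 22782844, plus strand), was at 12.1 CPM in skin Cont, 13.3 CPM in the library labelled cKO, 16.5 CPM in cultured Cont BEC, 21.1 CPM in OE-BEC, 19.5 CPM in Cont LEC and 33.2 CPM in OE-LEC. OE-LEC stood alone at the top, while the skin libraries did not differ beyond counting error. Plat was 1.72-fold higher in OE-LEC (log2 0.79, 0.63 to 0.94), with log2 ratios of 0.39 (0.15 to 0.63) in OE-BEC and 0.09 (-0.28 to 0.46) in skin.

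The activator genes also shifted against each other. Plau reads per Plat read were 13.8 (12.3 to 15.7) in Cont BEC and 9.46 (8.38 to 10.7) in OE-BEC, and 19.6 (18.0 to 21.5) in Cont LEC and 8.94 (8.38 to 9.54) in OE-LEC. In skin they were 7.45 (6.08 to 9.20) in Cont and 18.4 (15.6 to 21.8) under the cKO label. The intervals did not overlap within any pair, with the urokinase share lower in both OE libraries and higher in skin.

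The OE comparisons do not share a library, and 7 of 9 members had log2 ratios of the same sign in both. The share of all genes with the same sign in both was not computed, so this count only describes the members. Thbd and Tfpi were lower in OE-BEC and higher in OE-LEC, although relative to the endothelial markers both were positive in both pairs. The ratio in OE-LEC minus that in OE-BEC was -0.65 (-0.77 to -0.52) for Plaur and -1.36 (-2.32 to -0.40) for F3, so those genes differed from control by less in the LEC pair.

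The control libraries alone differed for most members. Cultured Cont BEC stood 7.39-fold above skin Cont for Thbd, 5.26-fold for Plaur and 4.54-fold for Procr, but only 1.14-fold for Tfpi. Among the 3 controls, 7 of 9 members were highest in Cont LEC, with F3 5.27-fold (3.01 to 9.96) and Plaur 3.01-fold above Cont BEC, whereas F8 and Vwf were highest in Cont BEC. The share of all genes highest in Cont LEC was not computed, so that count is no trait shown to be particular to the members. Sorted tissue and cultures were also prepared differently, so cell type and preparation cannot be told apart.

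Per kilobase of annotated exon, which allows genes to be compared, the anticoagulant receptors Thbd and Procr and the urokinase gene Plau were the 3 highest members in all 4 cultures. In Cont BEC Thbd was at 155.0 CPM per kilobase, Procr at 97.7, Plau at 96.6, Tfpi at 29.0, Plaur at 22.0, Vwf at 12.7, F8 at 7.74, Plat at 2.65 and F3 at 0.313. Cont LEC placed Procr first at 265.5 CPM per kilobase, and Vwf dropped to 1.96, below F8 at 4.43. In skin Cont, Plau led at 38.0 CPM per kilobase, followed by Tfpi at 25.5, Procr at 21.5 and Thbd at 20.97.

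A further 70 genes of the clotting and fibrinolysis pathways were described from lists fixed for this work with earlier results known. In the skin pair 3 of 55 tested passed the fold rule as higher and 2 as lower, in the BEC pair 7 and 4 of 49, and in the LEC pair 3 and 2 of 44. The shares of all genes called were 5.17% and 2.41% in skin, 8.02% and 5.27% in the BEC pair and 2.77% and 2.09% in the LEC pair. Only those with at least 100 normalized counts in one library, or direct partners of a member, are given with values. Thbs1, which encodes the adhesive glycoprotein thrombospondin, rose 5.05-fold in the library labelled cKO (1504 and 9862 reads). Selp, encoding P-selectin, which is stored in the same granules as von Willebrand factor, was 3.84-fold lower there (130 and 44 reads), and Ptgs2, a prostaglandin synthase, was 3.85-fold lower (418 and 141 reads). Relative to the endothelial markers, which were also lower in that library, their log2 ratios moved from -1.94 and -1.95 to -1.25 and -1.26, short of 3-fold. F2r, the main thrombin receptor of endothelium, rose 3.13-fold in OE-BEC (116 and 278 reads), with log2 ratios of 0.30 in OE-LEC and -0.14 in skin, the latter 0.55 relative to the endothelial markers.

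The following counts by list use the interval rule, which called 23.1% of all genes higher and 25.4% lower in skin, 27.4% and 30.0% in the BEC pair and 24.2% and 21.4% in the LEC pair, so a list with shares near these is at the background. None of the counts in this paragraph was repeated with the endothelial-marker scaling. The fibrinolysis regulators other than the members were higher for 5 and lower for 0 of 5 in OE-BEC and higher for 4 and lower for 0 of 5 in OE-LEC. In both cultured pairs these 5 were Anxa2, S100a10, Plgrkt, Thbs1 and Lrp1. The inhibitor genes Serpine2 and Serpinb2 had fewer than 10 reads there and did not enter. Serpine2, with 8 and 0 reads in the BEC pair, was lower by the fold rule. Serpinb2, with 0 and 5 reads in the LEC pair, was higher by it. In skin 4 were higher and 2 lower of 8. Genes of endothelial platelet inhibition, such as Pecam1, were lower for 5 and higher for 0 of 7 in skin (median log2 ratio -0.70), beside the lower endothelial markers, a list that also holds Pecam1. There 2 were higher and 3 lower of 6 in OE-BEC, and 3 higher and 2 lower of 7 in OE-LEC. Other plasma anticoagulants and heparan-dependent inhibitors were higher for 3 and lower for 1 of 7 in skin, for 2 and 1 of 5 in OE-BEC, and for 0 and 0 of 3 in OE-LEC. Thrombin receptors were higher for 1 and lower for 1 in each pair, of 4, 2 and 3 tested. Plasma clotting factors, made mainly by liver, had no read for 7 of 14 genes in skin Cont, 9 in Cont BEC and 12 in Cont LEC. Factor VIII and von Willebrand factor clearance receptors were higher for 2 and lower for 1 of 6 in skin, for 1 and 2 of 4 in OE-BEC and for 1 and 3 of 4 in OE-LEC.

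Stab2, an endothelial scavenger receptor that clears von Willebrand factor with its bound factor VIII, passed the fold rule in all 3 pairs. It had 2412 reads in Cont BEC and 114 in OE-BEC, 16.2-fold lower, and 242 and 40 in the LEC pair, 7.10-fold lower. In skin it was 5.07-fold higher in the library labelled cKO (133 and 876 reads), in the direction opposite to the cultures. In the same OE libraries F8 and Vwf, whose products it clears, were lower as well.

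**Figure D4:**
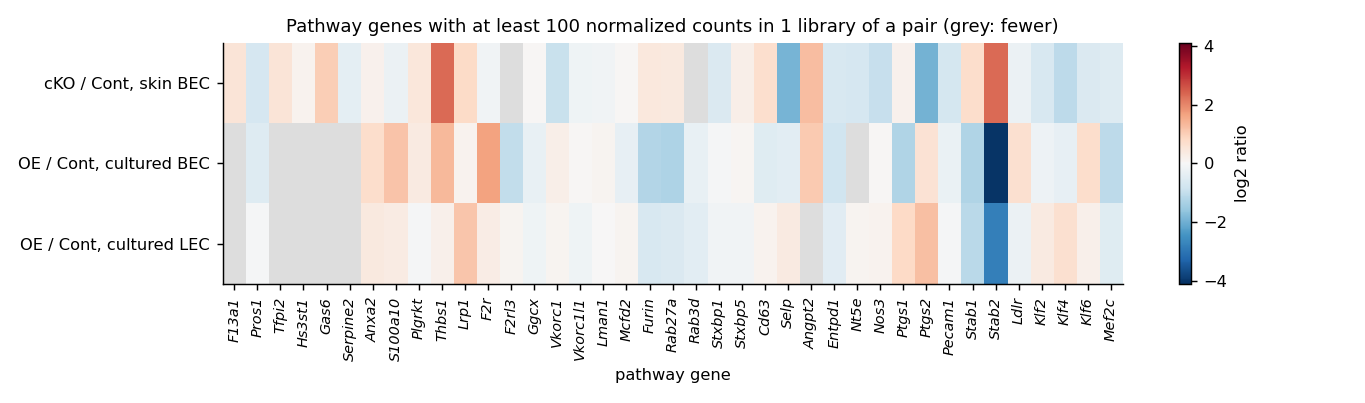
Log2 ratios of 39 pathway genes with at least 100 normalized counts in one library, by list, for the skin, BEC and LEC pairs; red is higher and blue lower in the changed library, and 14 grey cells mark genes under that count in a pair. The drawn ratios carry a pseudocount of 1. Stab2 is blue in both OE pairs (-4.01 and -2.795) and red in skin (2.33), and Thbs1 is red in skin (2.33).

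F13a1, which encodes the fibrin-crosslinking factor XIII subunit and is known from macrophages and platelets, had 18687 and 34968 reads in the skin pair and at most 2 in any culture. It was 1.44-fold higher in the library labelled cKO, beside the higher macrophage markers, and their part in it was not tested. F13a1 was named after its values were seen.

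The genes whose pattern over the 6 libraries lay closest to each member were found by the distance between centred log2(CPM + 1) values, among 11153 genes with at least 10 CPM in a library. The 6 points come in 3 pairs that share a culture or tissue, so the correlations below are descriptions. Kit was nearest to F8 (distance 0.55, r = 0.978), at 397 and 92.1 CPM in Cont BEC and OE-BEC, followed by Clca2 and Sox18. Clec14a was nearest to Vwf (0.89, r = 0.970), followed by Cbfa2t3 and 6430548M08Rik. For Thbd these genes were Ifitm3 (0.45), AI606473 and Mpv17l2. For Procr they were Dusp14 (0.36), the member Plaur (0.45, r = 0.994) and Ube2ql1. Tfpi had Wdr61 (0.09), Grhpr and Mydgf. Plat had Camk2d (0.25), Pqlc3 and Cdh2. Plau had Rpl21 (0.33), Atp6v1f and Snx10. Plaur had Slc19a2 (0.34), Cfap69 and Trmt61a, and F3 had Gnb1l (0.13), Pdgfd and Dcbld2.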

How the data were processed

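RNA was sequenced from 6 mouse endothelial libraries made with the ScriptSeq v2 kit. Per the labels and the study's methods, the authors trimmed reads with skewer 0.2.2 (minimum length 75), aligned them to mm10 with STAR 2.7.9a and deposited read counts per gene made with VERSE 0.1.5. Whether the counting used strand is not given in the sources used here. The deposited values were untransformed counts, and a few genes per culture could take a varying share: Rn45s held between 0.0534% and 10.9% of reads. Groups came from the sample labels.

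From the counts, levels were written as reads per 1000000 (CPM) with exact Poisson 95% intervals. Each pair was scaled by the median of ratios over its 2 libraries (DESeq2 1.42.0, R 4.3.3), and log2 ratios carry exact 95% intervals of read counts (scipy 1.17.1). Median log2 ratios and the drawn ratios of the pathway genes used a pseudocount of 1. The fold rule follows the study's methods. With 1 library per condition, edgeR's quasi-likelihood test and any p-value were not possible. Alternatives were TMM (edgeR 4.0.16), total counts with and without Rn45s, size factors over all 6 libraries, a fold of 2, minima of 20 or none, a pseudocount of 1, and, added after seeing the data, the sum of 12 endothelial markers. The interval code was tested on simulated data. Positions and exon lengths are from GENCODE M21 (GRCm38), which matched 95.6% of gene symbols, and promoters from RefSeq (GRCm38.p6), which held F3, F8, Plaur, Procr and Tfpi.

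Named genes were all 9 members, Dot1l, up to 5 genes per pathway list and pair past the fold rule with at least 100 normalized counts, direct partners (Lman1, Mcfd2, F2r) and the 3 nearest genes of each member. Furin, Rab27a, Klf2, Klf4, Klf6, Mef2c, F13a1, Anxa2, S100a10, Plgrkt, Lrp1, Serpine2, Serpinb2 and the cell type markers were named outside this rule. The members and lists were chosen with earlier results of these data known. A gene of the lists is not reported here.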

Additional observations from a re-analysis of the deposited data

Results flagged for a closer look

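Thbd and Tfpi differed from their controls in opposite directions in OE-BEC and OE-LEC, with 1 library in each condition. For Thbd the log2 ratio was -0.36 in OE-BEC and 0.45 in OE-LEC, a difference of 0.81 (counting interval 0.75 to 0.86). For Tfpi the ratios were -0.21 and 0.17, a difference of 0.38 (0.29 to 0.48). These intervals cover counting error only and no replicate gave a test of the difference, so it was not tested. Relative to the endothelial markers Thbd was at 0.29 and Tfpi at 0.44 in OE-BEC, and at 0.62 and 0.34 in OE-LEC, so the signs then no longer differed.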

How the results depend on the processing

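Of 162 alternative log2 ratios of the members, 140 lay inside the interval of the reported value and 7 changed sign, all 7 under the endothelial-marker scaling chosen after seeing the data. The scalings by TMM, total counts (with or without Rn45s) and all 6 libraries kept every sign. In skin, the members past the fold rule went from 0 to 1 (Plau) both under the endothelial scaling and with a fold of 2, and in OE-BEC from 3 to 5 with a fold of 2, where Procr and Plaur were added. The endothelial scaling left 3 in OE-BEC, of which 1 was shared. Pathway genes past the rule went in skin from 5 to 11 with a fold of 2 and to 9 with no minimum. Under the endothelial scaling they were 7 in skin, 16 in OE-BEC and 5 in OE-LEC. In OE-BEC they went from 11 to 22 with a fold of 2, 3 with a minimum of 20, 17 with no minimum and 7 where the interval also had to exclude 0. In OE-LEC they went from 5 to 8 with a fold of 2, 3 with a minimum of 20 and 11 with no minimum. Of the 27 nearest genes, 17 were shared when at least 50 CPM was required and 19 with a pseudocount of 0.1. No paired analysis was possible because each condition had 1 library, and no replicate could be left out. Depth limited F3 most, with 4 and 5 reads in the skin libraries.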
